A study of Mus musculus with 4 samples.

Results

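The genes described here are 9 members of the interleukin-1 (IL-1) and interleukin-18 (IL-18) system: the ligands Il1a, Il1b and Il18, the processing enzyme Casp1, the receptor chains Il1r1 and Il1rap, and the brakes Il1r2, Il1rn and Irak3. They were found by gene symbol among 16637 named genes, and all 9 were present, with 11 probes in all. Female mice of a strain labelled BALB/c (mock) or BALC/c (the other groups) were given 0.1 ml of 50% ethanol as mock treatment, or the same volume with 250 mg/kg trinitrobenzene sulfonic acid (TNBS), a hapten that provokes colitis. A further group had ginger extract mixed into the TNBS dose, and the last had zingerone, a phenolic ketone of ginger, mixed into it. Each of the 4 groups had 6 of the 24 mice, and colon was taken on day 7. RNA of each group was measured on 1 one-colour array with Cy3, so all groups, mock included, share the ethanol vehicle and no value has a replicate. The labels give neither the amounts of ginger and zingerone on these arrays nor whether an array held 1 mouse or a pool.

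IL-1α and IL-1β both bind the receptor IL1R1, which then recruits the accessory chain IL1RAP and signals through MYD88 and IRAK kinases to NF-κB. The antagonist encoded by Il1rn occupies the receptor without signalling, the decoy receptor IL1R2 binds ligand but lacks a signalling domain, and IRAK3 dampens the kinase step, mainly in myeloid cells. IL-1β and IL-18 are made as precursors that caspase-1 cuts. In the colon, IL-1β comes largely from myeloid cells, while IL-18 is also made by the epithelium at rest.

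The 9 genes have 13 annotated starts in the RefSeq table of GRCm38.p6. The 250 bases upstream of the start are shown for the 5 measured genes with 1 start, because they include both extremes of the differences below: Il1b, Il1a and Il1r2 were higher on the TNBS array and Il18 and Casp1 lower. Capitals mark matches on either strand to 5 motifs.
Il1b, chr2:129371140-129371389, - strand: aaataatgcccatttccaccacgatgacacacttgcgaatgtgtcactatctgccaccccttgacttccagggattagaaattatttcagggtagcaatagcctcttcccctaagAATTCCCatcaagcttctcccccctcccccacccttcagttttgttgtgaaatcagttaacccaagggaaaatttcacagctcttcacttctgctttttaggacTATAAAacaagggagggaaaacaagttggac
Il1a, chr2:129309973-129310222, - strand: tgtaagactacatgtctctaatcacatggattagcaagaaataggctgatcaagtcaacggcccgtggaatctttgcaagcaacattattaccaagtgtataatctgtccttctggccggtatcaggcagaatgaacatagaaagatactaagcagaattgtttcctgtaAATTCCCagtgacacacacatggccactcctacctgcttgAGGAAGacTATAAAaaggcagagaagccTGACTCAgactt
Il1r2, chr1:40085843-40086092, + strand: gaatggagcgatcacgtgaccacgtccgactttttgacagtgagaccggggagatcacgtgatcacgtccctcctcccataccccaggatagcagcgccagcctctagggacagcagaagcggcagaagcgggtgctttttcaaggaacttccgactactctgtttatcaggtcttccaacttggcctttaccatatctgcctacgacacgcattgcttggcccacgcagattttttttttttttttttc
Il18, chr9:50554450-50554699, + strand: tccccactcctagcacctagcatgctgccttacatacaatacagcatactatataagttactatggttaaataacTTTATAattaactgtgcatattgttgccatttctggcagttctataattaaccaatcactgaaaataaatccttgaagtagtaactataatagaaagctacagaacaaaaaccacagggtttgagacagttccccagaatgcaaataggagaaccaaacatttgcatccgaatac
Casp1, chr9:5298267-5298516, + strand: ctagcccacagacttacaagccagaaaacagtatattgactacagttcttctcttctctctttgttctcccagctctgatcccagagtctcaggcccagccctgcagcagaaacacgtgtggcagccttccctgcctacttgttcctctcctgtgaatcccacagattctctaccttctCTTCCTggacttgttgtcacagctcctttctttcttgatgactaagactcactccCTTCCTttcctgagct
The motifs were the TATA box TATAAA (a match in 12.4% of all 32851 upstream windows), the AP-1 site TGANTCA (6.75%), the start of an NF-κB site GGGANTT (14.4%), the C/EBP site TTGCNNAA (9.56%) and the PU.1 core AGGAAG (29.5%). The capitals in Il1b are a TATA box 26 to 31 bases before the start and, farther upstream, the NF-κB letters on the opposite strand (AATTCCC). In Il1a they are the same AATTCCC, the PU.1 core, a TATA box 27 to 32 bases before the start and the AP-1 letters TGACTCA. Il18 has the TATA letters on the opposite strand, 170 to 175 bases before its start, and Casp1 has 2 PU.1 cores. The Il1r2 window holds none of the 5. No matches overlapped in these 5 windows. These are matches of letters only, and binding was not measured.

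Values are Cy3 intensities on a linear scale that all 4 arrays share in distribution (median 238.25 on the mock array, maximum 64634 on each). A gene was called measured where the mean log2 intensity of its probes came up to the array's median over named probes (270.5 on mock) on 1 or more arrays. This held for 10056 genes and for 8 of the 9 members, the exception being Il1rap. Higher and lower below mean at least 2-fold apart between 2 arrays, and no test was possible with 1 array per group. In the sentences that follow, "with ginger" and "with zingerone" stand for the arrays of TNBS mixed with either. Levels of different genes cannot be set against each other, since each probe has its own brightness.

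Between TNBS and mock every measured member lay past 2-fold: 6 of 8 were higher and 2 were lower. Il1a counts as measured through its TNBS value alone, so its place among the higher genes is partly fixed by that limit. Over all measured genes 5.08% were higher and 4.52% lower. The median log2 difference was 2.11 for the 8 members and -0.04 for all measured genes. The members were chosen with earlier results of these data known, so this contrast is descriptive only. Il1r2, Il1b, Irak3, Il1r1, Il1rn and Il1a were higher, in that order of fold, and Il18 and Casp1 were lower. On all 8 the ginger and zingerone arrays lay between mock and TNBS, with zingerone the nearer to mock, for Il1a by less than 1 intensity unit. The 2 Il1a probes disagreed on that order: the first read 213.75 with ginger and 230.75 with zingerone, the second 200 and 184.

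**Figure D1:**
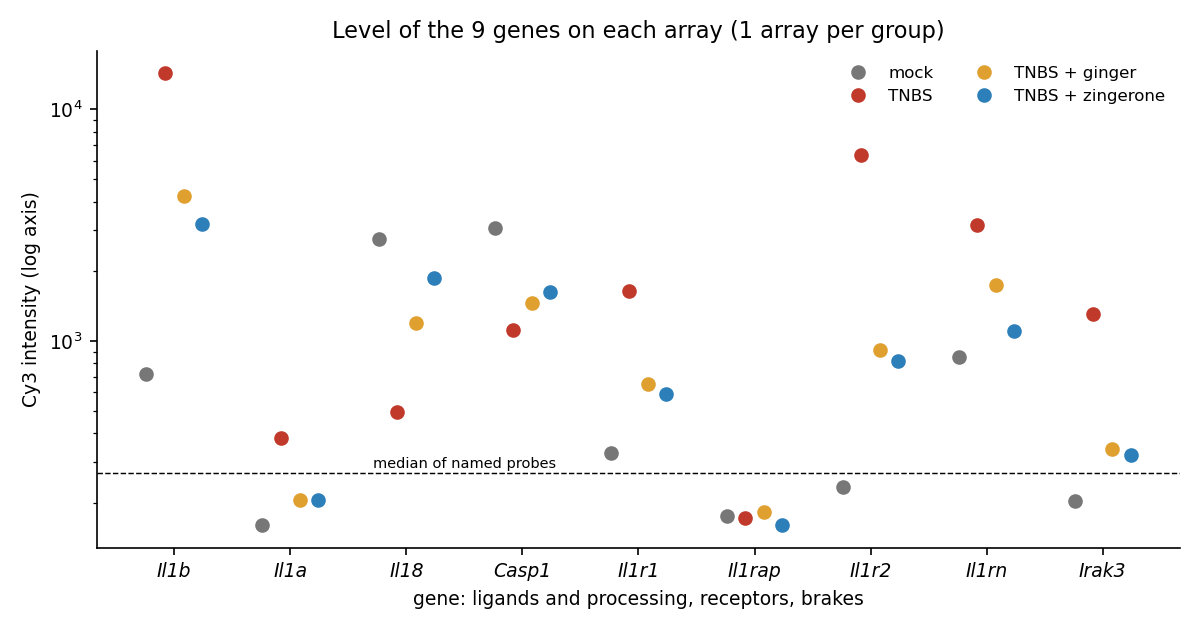
Cy3 intensity (log axis) of each of the 9 genes on the mock, TNBS, TNBS with ginger and TNBS with zingerone arrays, 1 point per array; the dashed line is the mock array's median of named probes, 270.5. Il1b spans 719 to 14298.5, Il18 runs the other way from 2769 on mock to 494.75 on TNBS, and Il1rap stays below the line on all 4 arrays.

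Il1b, the ligand named in the title of the study, read 719 on mock, 14298.5 on TNBS, 4221.75 with ginger and 3196 with zingerone. The TNBS value stood far above the others, and both treated arrays stayed well above mock. The TNBS-minus-mock log2 difference of 4.31 placed Il1b at rank 21 from the highest of 10056 measured genes. It was still 5.87-fold above mock on the ginger array and 4.45-fold above mock on the zingerone array, at ranks 25 and 32 from the highest in those comparisons.

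Il1a, the other ligand of the same receptor, rests on 2 unlike probes. The first read 144.75 on mock, 629.25 on TNBS, 213.75 with ginger and 230.75 with zingerone. The second read 177.25, 230.75, 200 and 184 in the same order. Both were highest on the TNBS array, but the TNBS-to-mock fold was 4.35 for the first and 1.30 for the second. Their mean was 2.38-fold higher on TNBS than on mock and less than 2-fold below TNBS on either treated array. Subtracting the 5th percentile gave 4.47-fold above mock, a figure that depends on the lowest value allowed there, 50. With the first probe alone, Il1a was 2.94-fold lower on ginger and 2.73-fold lower on zingerone than on TNBS. The other ligand gene next to it on the chromosome, Il1b, has 1 probe.

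Il18 went the opposite way, with 2769 on mock, 494.75 on TNBS, 1190.38 with ginger and 1862.25 with zingerone. The mock array was the highest and TNBS the lowest, 5.60-fold apart, which is rank 21 from the lowest of all measured genes. Against TNBS, Il18 was 2.41-fold higher on ginger and 3.76-fold higher on zingerone, ranks 55 and 34 from the highest. It stayed 2.33-fold below mock on ginger, while the zingerone value was 1.49-fold below mock.

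Casp1, which encodes the protease that cuts both precursors, read 3081.5 on mock, 1119 on TNBS, 1453.25 with ginger and 1626.25 with zingerone. The mock array was the highest, and the other 3 ran from 1119 to 1626.25. Casp1 was 2.75-fold lower on TNBS than on mock, and the treated arrays were 1.30-fold (ginger) and 1.45-fold (zingerone) above TNBS, neither past 2-fold. Ginger was 2.12-fold and zingerone 1.89-fold below mock. Cleavage of the precursors, and any protein, was not measured.

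Of the receptor chains, Il1r1 had intensities of 327.25 on mock, 1642 on TNBS, 650.25 with ginger and 588.25 with zingerone. TNBS was again alone at the top, 5.02-fold above mock. Il1r1 was 2.53-fold lower on ginger and 2.79-fold lower on zingerone than on TNBS. Against mock these arrays were 1.99-fold and 1.80-fold above, just inside the 2-fold limit.

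Il1rap, the shared accessory chain, was dim on both of its probes, at 188.75 to 221.0 on the first and 136.25 to 149.75 on the second over the 4 arrays. Its mean differed by at most 1.13-fold between any pair of arrays. Since background appears not to have been subtracted, a probe this dim would show little of a true difference, so its level is not known here.

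The decoy receptor Il1r2 gave the largest TNBS-to-mock difference of the 9 genes, with 233.25 on mock, 6346.5 on TNBS, 916.75 with ginger and 821.375 with zingerone. Mock lay below the median of named probes, and TNBS was 27.2-fold above mock, at rank 15 from the highest of all measured genes. The treated arrays were close to each other and 6.92-fold (ginger) and 7.73-fold (zingerone) below TNBS, ranks 10 and 14 from the lowest. They remained 3.93-fold and 3.52-fold above mock. After subtracting the 5th percentile of each array, the folds above mock were 56.1 on TNBS, 7.16 on ginger and 6.31 on zingerone, since the mock value is dim. Il1r2 lies next to Il1r1 on chromosome 1, followed by Il1rl2, Il1rl1 and Il18r1. Of these neighbours, Il18r1 differed 1.26-fold between TNBS and mock, Il1rl2 was not measured, and Il1rl1 was not analysed here.

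Il1rn, the receptor antagonist, read 854.25 on mock, 3153.25 on TNBS, 1746 with ginger and 1101 with zingerone. TNBS was 3.69-fold above mock, a log2 difference of 1.88. For the ligands that the antagonist competes with, it was 4.31 for Il1b and 1.25 for Il1a, the latter from unlike probes. The treatments differed on Il1rn by 1.59-fold, close to the 1.56-fold of Il18. For Il1rn the ginger array was 1.81-fold below TNBS and still 2.04-fold above mock. The zingerone array was 2.86-fold below TNBS and 1.29-fold above mock.

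Irak3, the kinase-like brake inside the cell, had values of 203.5 on mock, 1309 on TNBS, 340.75 with ginger and 320.75 with zingerone. The TNBS array stood alone, 6.43-fold above mock. Irak3 was 3.84-fold lower on ginger and 4.08-fold lower on zingerone than on TNBS, and within 2-fold of mock on both. The mock value was below the median of named probes, and with the 5th percentile subtracted the folds above mock were 14.6 on TNBS, 2.69 on ginger and 2.46 on zingerone.

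**Figure D2:**
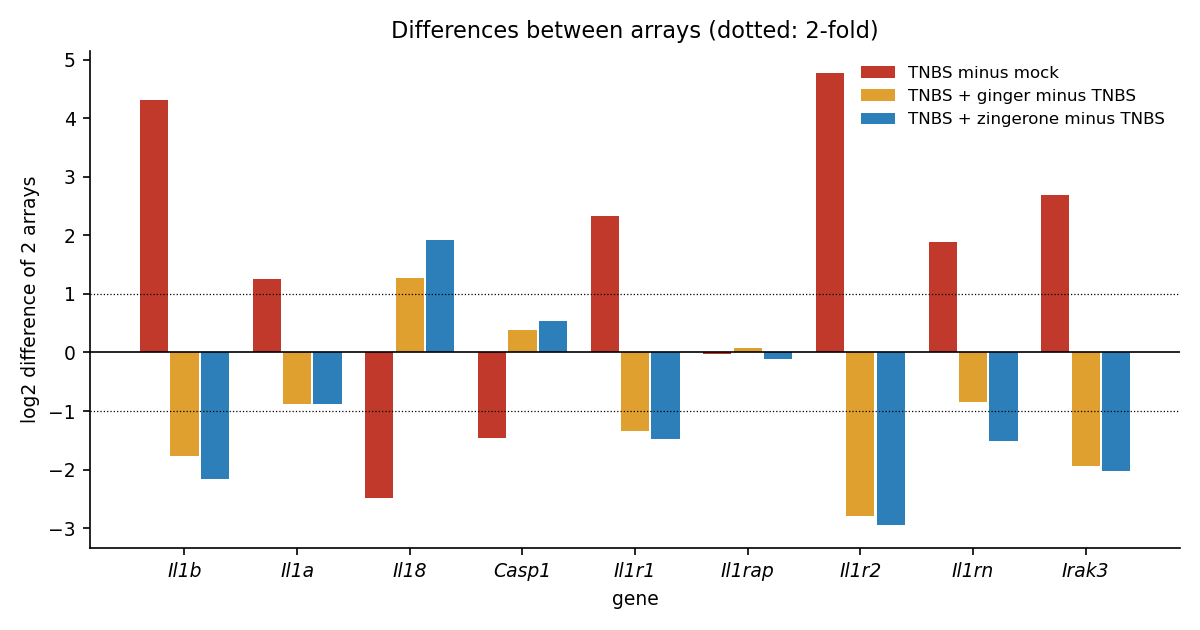
Log2 difference between pairs of arrays for each of the 9 genes (TNBS minus mock, TNBS with ginger minus TNBS, TNBS with zingerone minus TNBS); dotted lines mark 2-fold. Il1r2 and Il1b have the tallest bars for TNBS minus mock (4.77 and 4.31), Il18 and Casp1 point down, and for every gene but Il1rap the treated bars point away from the TNBS bar.

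On the ginger array 4 of 8 measured members were lower than on TNBS (Il1r2, Irak3, Il1b and Il1r1) and 1 was higher (Il18). Over all measured genes 2.48% were lower and 1.35% higher. The members' median log2 difference was -1.11, against 0.02 for all measured genes. On the zingerone array 5 of 8 were lower, the same 4 and Il1rn, and Il18 was higher, where 2.96% of all measured genes were lower and 4.57% higher. The median was -1.50 for the members and -0.02 for all measured genes. The TNBS array is shared by these comparisons and by TNBS against mock, so they are not independent of each other.

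**Figure D3:**
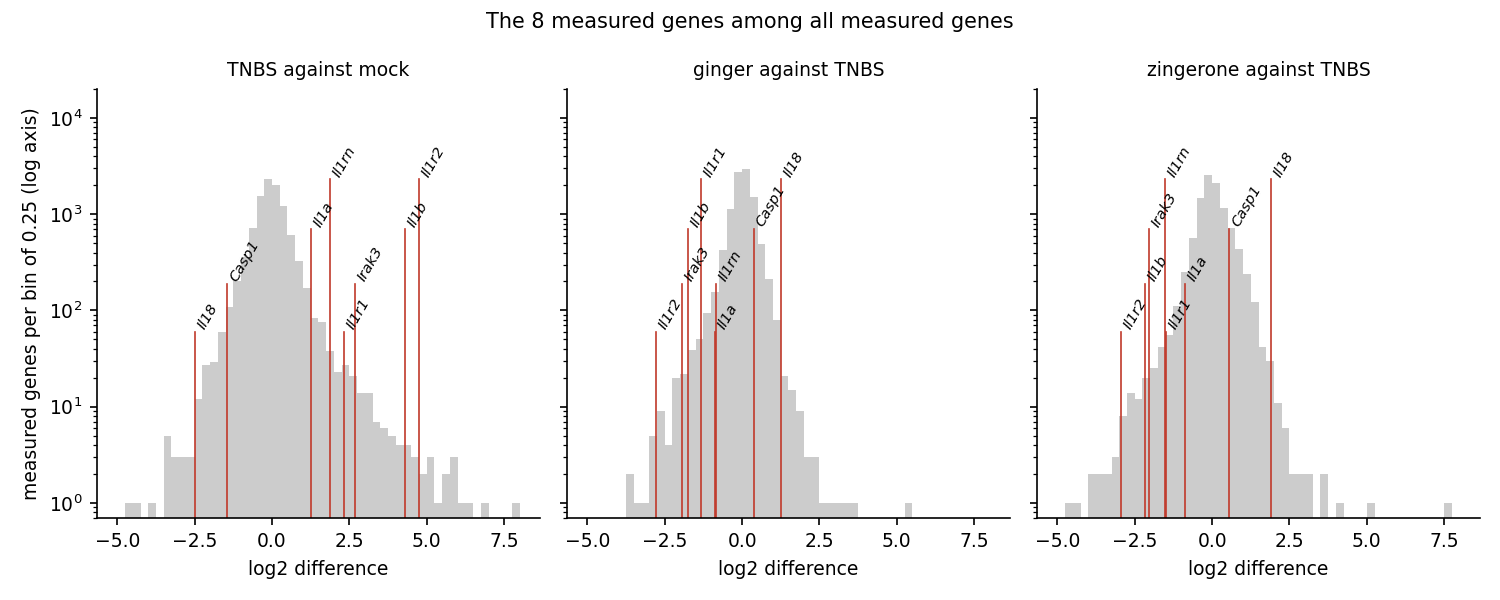
Number of measured genes (log axis) per bin of 0.25 of the log2 difference in 3 comparisons, with red lines at the 8 measured members. For TNBS against mock Il1b and Il1r2 lie in the far right tail and Il18 in the left tail, and against TNBS the treated arrays place Il1r2 in the left tail at -2.79 and -2.95.

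Against mock, 3 of 8 members were higher on ginger (Il1b, Il1r2 and Il1rn) and 2 were lower (Il18 and Casp1), beside 1.62% and 1.08% of all measured genes. On zingerone 2 of 8 were higher, Il1b and Il1r2, beside 1.53%, and none was lower, beside 1.05%. As a share of the intensity gap between mock and TNBS, which a constant background would not alter, Irak3 and Il1r2 kept 12.4% and 11.2% on ginger and 10.6% and 9.62% on zingerone. Il1b kept 25.8% on ginger and 18.2% on zingerone, and Il1r1 24.6% and 19.9%. Il1rn kept 38.8% and 10.7%. Casp1 was nearest to its TNBS level, with 83.0% of the gap left on ginger and 74.2% on zingerone, and Il18 had 69.4% and 39.9% left. As a share of the log2 gap the values and their order differed: on ginger and zingerone Il1b kept 59.2% and 49.9%, Il1r2 41.4% and 38.1%, and Irak3 27.7% and 24.4%. On that scale Casp1 kept most (74.2% and 63.1%), Irak3 kept least on ginger, and Il1rn (19.4%) and Il18 (23.0%) kept least on zingerone.

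**Figure D4:**
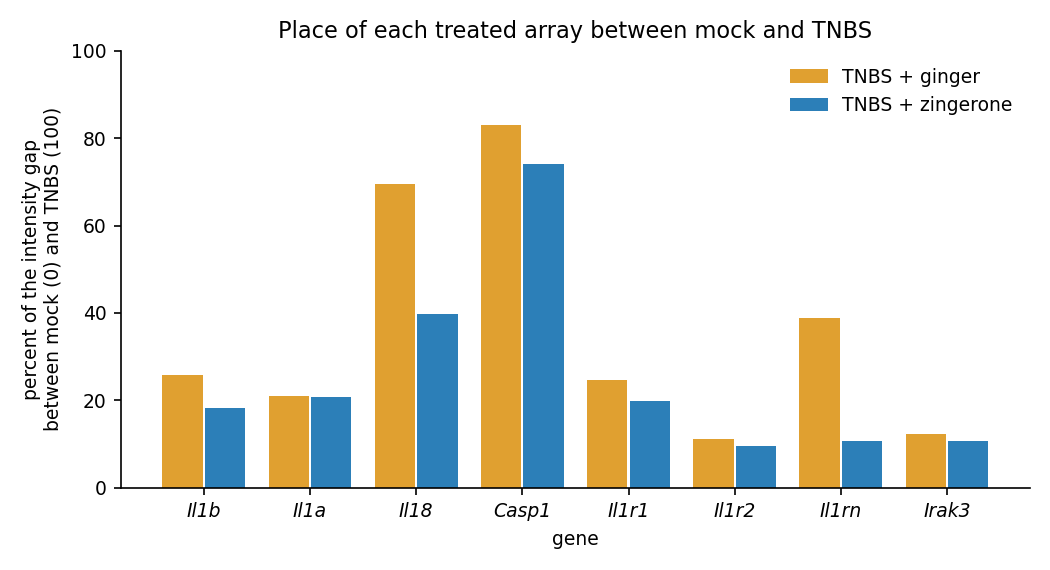
Place of the TNBS with ginger and TNBS with zingerone arrays between mock (0) and TNBS (100) in percent of the linear intensity gap, for the 8 measured members. On this scale the bars of Casp1 are the tallest (83.0% and 74.2%) and those of Il1r2 the shortest (11.2% and 9.62%), an order that is not the same on the log2 scale.

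Ginger and zingerone differed by less than 2-fold on all 8 measured members. Among all measured genes 0.358% were higher on ginger and 0.746% higher on zingerone, and of the genes past 2-fold 32.4% were higher on ginger, or 16.7% after subtraction of the 5th percentile of each array. Il1rn was 1.59-fold higher on ginger and Il18 was 1.56-fold higher on zingerone, and 95% of measured genes differed by less than 1.55-fold. The other 6 members differed by at most 1.32-fold, the value of Il1b. Without replicates these gaps cannot be told from the spread between mice or arrays.

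The other genes of the pathway were taken from 4 lists. Of 14 further IL-1 family ligands, receptors and brakes, 13 were on the array and 5 were measured, of which 2 were higher on TNBS than on mock. The share over all measured genes was 5.08%. The alarmin Il33 had 404 on mock, 2095.25 on TNBS, 1068.25 with ginger and 955.25 with zingerone. It was 5.19-fold higher on TNBS, and then 1.96-fold (ginger) and 2.19-fold (zingerone) below it. Il1f6, which encodes IL-36α, was dim, at 137.5 on mock, 298 on TNBS, 155 with ginger and 168.75 with zingerone. It came up to the limit for measured genes on the TNBS array alone. Its relative Il1f9 (IL-36γ) was below the limit for measured genes on every array, narrowly on TNBS (268.25 against 269) and clearly on mock (103). Il18bp, which encodes the soluble protein that captures IL-18, read 393, 265.25, 290.25 and 462.25 in the order mock, TNBS, ginger, zingerone, with TNBS 1.48-fold below mock. The median TNBS-minus-mock difference of the 5 genes was 0.34 on the log2 scale.

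Of the genes that carry the signal from the receptor, 9 of 12 on the array were measured. All 9 were within 2-fold in all 6 comparisons, with a median log2 difference of -0.07 for TNBS against mock. Most genes were within 2-fold as well: 5.08% of all measured genes were higher and 4.52% lower on TNBS than on mock. The count therefore does not set these genes apart. The adaptor Myd88 read 1062 on mock, 1209.87 on TNBS, 903 with ginger and 806 with zingerone. Tab1, a partner of the kinase TAK1, showed the widest gap between TNBS and mock in this list, 1.61-fold lower on TNBS. The kinase genes Irak1 (1.36-fold lower) and Map3k7 (271.5 on mock, 270.25 on TNBS) also stayed within 2-fold. Irak3, described above with the brakes, is the IRAK family gene that was past 2-fold, while Irak2 was not measured and Irak4 not analysed here.

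Among 10 measured inflammasome and processing genes of 14 on the array, 2 were lower on TNBS than on mock, like Casp1, and 1 was higher. The shares over all measured genes were 4.52% lower and 5.08% higher. The sensor Nlrp6, known from colon epithelium, read 3002.88 on mock, 1243.25 on TNBS, 1881.5 with ginger and 1476 with zingerone. Naip2, which with Nlrc4 senses bacterial secretion systems, read 772 on mock, 334.5 on TNBS, 438.75 with ginger and 607.75 with zingerone. Mefv, which encodes pyrin, was 2.15-fold higher on TNBS but at 293.25 or less on every array. Only its TNBS value came up to the limit for measured genes. Both Nlrp6 and Naip2 were lowest on TNBS, 2.42-fold and 2.31-fold below mock. Casp4, the neighbour of Casp1 on chromosome 9 and a sensor of lipopolysaccharide, followed another order, with 522.125 on mock, 601 on TNBS, 274 with ginger and 302.25 with zingerone. It was 2.19-fold lower on ginger and 1.99-fold lower on zingerone than on TNBS. Gsdmd, the pore-forming target of both caspases, differed 1.14-fold between TNBS and mock. Nlrp3 and the adaptor Pycard were on the array but not measured. The list's median for TNBS against mock was -0.18. Of the proteases that can also cut IL-1 family precursors, 5 of 8 on the array were measured and all stayed within 2-fold in the 6 comparisons, among them the neutrophil proteases Ctsg and Prtn3 (1.22-fold and 1.04-fold between TNBS and mock). Since most measured genes were within 2-fold too, this does not set the proteases apart.

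**Figure D5:**
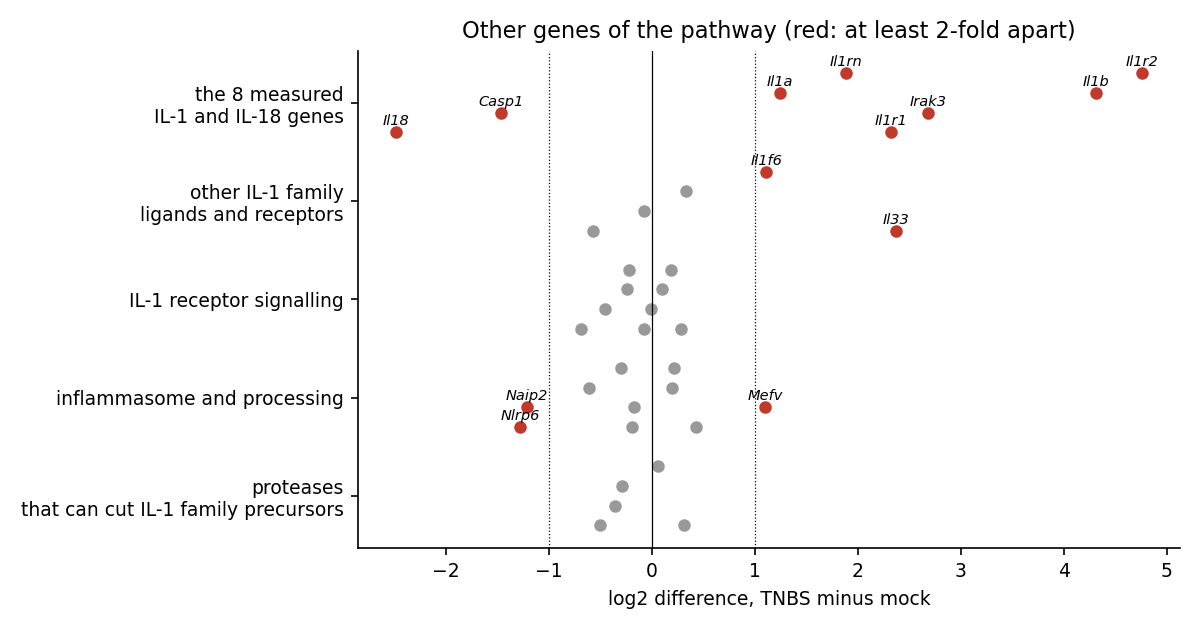
Log2 difference, TNBS minus mock, of each measured gene in 5 groups: the 8 measured IL-1 and IL-18 genes, other IL-1 family ligands and receptors, IL-1 receptor signalling, inflammasome and processing, and proteases; red points are at least 2-fold apart and are named. All 8 points of the first group are red, none of the 9 signalling genes is, and Nlrp6 and Naip2 lie left of the -1 line. Of all measured genes 5.08% were higher and 4.52% lower, so most would not be red.

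Markers of cell types that could carry these transcripts differed between the arrays unevenly. Their counts stand beside 5.08% of all measured genes higher and 4.52% lower on TNBS than on mock. Of 10 neutrophil markers on the array 8 were measured and 7 were higher on TNBS than on mock, and their summed intensity was 7619 on mock, 153012 on TNBS, 98656 with ginger and 77866 with zingerone. S100a8 and S100a9 made up 67.1% of this sum on TNBS and 89.4% with ginger. The other 6 summed to 5339 on mock, 50329 on TNBS, 10468 with ginger and 8156 with zingerone, a far deeper drop on the treated arrays. S100a9 read 59655.5 on TNBS, near the array maximum of 64634, and whether that limit narrowed its differences was not tested. Csf3r and Mpo did not reach the limit for measured genes. Of 10 measured monocyte and macrophage markers 2 were higher, Cd14 and Cd68, with sums of 4960, 32421, 7968 and 7810.5 in the order mock, TNBS, ginger, zingerone. Cd14 alone carried that difference, and the other 9 summed to 3638, 4350, 3747 and 3714. The defining genes Adgre1 (350.25 on mock, 269 on TNBS) and Csf1r (252 and 347) were within 2-fold, and Ccr2 was not measured. Their part in the differences of Il1b, Il1r2, Irak3 and Il1rn was not tested. Each sum adds probes of unequal brightness and is dominated by the brightest. In bulk tissue, more cells of a type and more RNA per cell cannot be told apart.

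Epithelial markers, which bear on Il18 and Casp1, ranged widely in brightness. Tff3 read 64634 with zingerone, the array maximum, while Cdx2 on TNBS (256.75) lay below that array's median of named probes (269). Of 15, all measured, 3 were lower on TNBS (Cdx2, Car4 and Slc26a3) and none was higher, with a summed intensity of 223060 on mock, 168236 on TNBS, 213395 with ginger and 244312 with zingerone and a median log2 difference of -0.64 for TNBS against mock. Epcam itself read 23352 on mock and 16460 on TNBS. Of the epithelial markers only Krt8 (1.34-fold) and Krt20 (1.61-fold) read higher on TNBS than on mock, both within 2-fold. Among 7 measured fibroblast markers 1 was higher on TNBS (Vim), and among 4 measured endothelial markers 2 were higher, Eng and Lyve1, groups that can carry Il1r1 and Il33. Sums for fibroblast markers were 7629, 23610, 10187 and 9524 in the order mock, TNBS, ginger, zingerone, but without Vim, which many cell types express, they were 4241, 4611, 3741 and 4384. For endothelial markers they were 1828, 3552, 2280 and 2144. Lum, Kdr, Tek and Vwf were not measured. Of 4 measured B and plasma cell markers 3 were lower on TNBS, with sums of 7583, 3446, 5101 and 5734, while none of 3 measured T and NK cell and 6 smooth muscle markers was past 2-fold in that comparison. Smooth muscle sums were 18746, 15958, 15235 and 8748, and those for T and NK cells 1829, 1542, 1763 and 1300.0. The part of these cells in the results was not tested.

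The genes most like each member were those with the smallest root mean square distance between their 4 log2 values, each centred on the gene's own mean, a likeness over 4 arrays that carries no test. Values were not scaled, so the number of near genes also reflects the size of a member's differences. For Il1b they were Clec4d (0.13), Cebpb (0.14) and Plaur (0.16), and for Il1r2 they were Dusp1 (0.084), Cd14 (0.14) and Srgn (0.22). Such near patterns were rare for these members, with 4 and 3 measured genes within 0.25. Irak3 was closest to Tnfaip3 (0.050), Jdp2 (0.093) and Ccrl2 (0.093), Il1rn to Mmp3 (0.054), Fermt2 (0.063) and Plek (0.12), and Il1r1 to Tubg1 (0.038), Glrx (0.072) and Anxa5 (0.078). Il18 was closest to Dmbt1 (0.045), an epithelial secreted protein gene that read 14577 on mock, 2609.75 on TNBS, 5831.25 with ginger and 9768.25 with zingerone, then to Acss1 (0.10) and Ndufb9 (0.14). Casp1 was closest to Psmb10 (0.039), Slc7a9 (0.055) and Ndufb7 (0.070). Il1a, with the smallest TNBS-to-mock fold of the measured members, was closest to Fam107b (0.028), Marcks (0.034) and Slc25a4 (0.036), with 706 genes within 0.25. Between the members themselves, Irak3 and Il1r1 were nearest to each other (0.237), with Il1rn and Il1r1 almost as near (0.242), and Il18 and Casp1 lay 0.51 apart.

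Of the 9 members 7 rest on 1 probe, and probes of 1 gene often disagreed on these arrays. Over 1775 measured genes with 2 probes the median gap between their TNBS-minus-mock log2 differences was 0.40 and the 95th percentile 1.35, and where 1 probe of the pair, the first listed, was past 2-fold (120 genes), the second was past it the same way for 16 and had the same sign for 93. No probe of a member met a rule for being bright or dim on 1 array alone, namely at least 4-fold from 3 others lying within 1.41-fold. No 3 arrays lay within 1.41-fold for the first Il1a probe, Il1b, Il1rn, Il1r1, Il1r2, Irak3, Il18 or Casp1. The rule could therefore not flag these, and an artefact of 1 array was not tested for them.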

How the data were processed

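For each of 4 arrays the deposited table gives the Cy3 intensity of 29922 probes. The submitters' processing notes name limma with no version or role, while normalization, scanner and background handling are not stated there. Sorted, the deposited intensity values of the arrays agree to within 1.84%, a sign of quantile normalization, and start at 74.25, as if no background was subtracted, so folds of dim probes are understated. Per the platform annotation, 21020 probes have a gene symbol and 8902 none. Symbols were updated through RefSeq (GRCm38.p6), 17558 being current, 3410 updated and 52 kept. Probes of a gene were averaged after log2 without a pseudocount, and genes kept that came up to the median of named probes on 1 array or more. Differences of 2 arrays were called at 2-fold. The members and lists were chosen with earlier results of these data known. All members were named, as were listed genes at least 2-fold apart between TNBS and mock with up to 3 well known others per list, the 3 genes nearest in pattern to each member, and defining markers. Il1f9, Tab1, Irak2, Irak4, Casp4, Gsdmd, Nlrp3, Pycard and the chromosome neighbours were chosen after their values were seen. Steps were checked on simulated data with Python 3.11.15, numpy 2.4.6 and pandas 2.3.3. The NF-κB letters were shortened after a longer, looser form had been searched. The values name no build, so the coordinates printed are those of the RefSeq upstream windows alone. The number of arrays limits the precision.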

Additional observations from a re-analysis of the deposited data

How the results depend on the processing

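Settings tried were the brightest probe per gene, a stricter dim-gene filter (the 75th percentile) or none, scaling to equal medians, renewed quantile normalization, raising low values to the 25th percentile, and subtracting each array's 5th percentile with 50 as the lowest value. Over these, 82 of 84 counts of members higher or lower stayed within 1.5 times the reported count. Several settings could change little. The arrays already agreed to within 1.84% before renewed normalization or equal medians, and Il1rap was the only member that the absence of a filter could add. The exceptions came with subtraction of the 5th percentile, which stretches folds of dim probes: 5 members in place of 3 were higher on ginger than on mock, and 4 in place of 2 on zingerone, Il1r1 (2.58-fold and 2.28-fold) and Irak3 (2.69-fold and 2.46-fold) being added. No difference past 2-fold turned its sign. Il1a moved past 2-fold below TNBS on ginger and zingerone with subtraction (2.78-fold and 2.83-fold) and with the brightest probe (2.94-fold and 2.73-fold), and the second Il1a probe alone was within 2-fold between TNBS and mock (1.30-fold). Il1a left the measured genes with the filter at the 75th percentile.

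With subtraction the counts over all measured genes, higher then lower, were 855 and 841 for TNBS against mock (511 and 455 as reported), 326 and 416 for ginger against TNBS (136 and 249), 963 and 534 for zingerone against TNBS (460 and 298), 296 and 280 for ginger against mock (163 and 109), 379 and 195 for zingerone against mock (154 and 106), and 63 and 314 for ginger against zingerone (36 and 75). No paired analysis was possible because each group had 1 array, and no array was left out for the same reason.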
